A study of Mus musculus with 6 samples.

Results

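The mast cell genes described here are 9 genes chosen by name: Cpa3, Mcpt4, Tpsb2, Tpsab1, Cma1, Kit, Fcer1a, Ms4a2 and Hdc. All 9 had a row in the data, out of 17342 named genes. They were followed in RNA-seq libraries of the inguinal white fat of 8-week-old C57BL/6 mice. This depot lies under the skin and gains heat-producing beige adipocytes in the cold. Rarres2-/- mice, in which the gene of the adipokine chemerin is disrupted, gave 3 libraries (replicates 4, 5 and 6), and wild-type (WT) mice gave 3 (replicates 1, 2 and 3). Both genotypes were cold-stimulated, and unstimulated fat was not analysed here. The sources used here give neither the temperature and length of the cold nor the deleted part of Rarres2. No label ties a library to its own mouse, so p-values measure the spread between libraries, which may be technical. Set side by side, the genotypes show whether the RNA of these genes differed with loss of chemerin in the cold.

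Mast cells are tissue-resident immune cells that mature in connective tissue and lie along vessels and in the stroma of fat. Their growth depends on Kit, the receptor of stem cell factor. Their surface carries the high-affinity IgE receptor, whose alpha chain is encoded by Fcer1a and whose beta chain is encoded by Ms4a2. Their granules hold histamine, made by histidine decarboxylase (Hdc), and large amounts of proteases: the carboxypeptidase Cpa3, the chymase Mcpt4, Cma1, which in mice has elastase-like specificity, and the tryptase Tpsb2. Tpsab1, the neighbouring tryptase gene, is annotated by RefSeq as a transcribed pseudogene in C57BL/6J.

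Start regions are shown for the genes whose levels moved together between libraries (Cpa3, Mcpt4, Cma1), for the IgE receptor gene Fcer1a, and for Kit, whose level did not move with them. Each is the 250 bases before 1 annotated transcript start from RefSeq (GRCm38.p6, the assembly that mm10 stands for), 5′ to 3′ on the strand of the gene. Further starts can exist, as for Kit. The windows of Cpa3, Fcer1a and Ms4a2 lie partly, and that of Hdc wholly, within the annotated gene. Capitals mark matches, on either strand, to a GATA word (GATAA or GATAG after an A or a T) or to an E-box word (CATGTG, read CACATG on the other strand, and CACGTG).
Cpa3 (chr3:20242182-20242431, minus strand): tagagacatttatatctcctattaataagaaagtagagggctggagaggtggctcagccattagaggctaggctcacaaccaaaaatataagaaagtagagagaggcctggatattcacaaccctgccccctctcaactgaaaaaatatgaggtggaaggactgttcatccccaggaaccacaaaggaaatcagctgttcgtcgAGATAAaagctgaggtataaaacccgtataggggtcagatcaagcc
Mcpt4 (chr14:56062311-56062560, minus strand): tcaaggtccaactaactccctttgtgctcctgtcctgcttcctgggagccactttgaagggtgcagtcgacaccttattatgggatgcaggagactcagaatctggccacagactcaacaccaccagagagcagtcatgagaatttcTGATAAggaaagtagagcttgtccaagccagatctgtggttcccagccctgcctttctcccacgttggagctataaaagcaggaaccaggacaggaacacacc
Cma1 (chr14:55944676-55944925, minus strand): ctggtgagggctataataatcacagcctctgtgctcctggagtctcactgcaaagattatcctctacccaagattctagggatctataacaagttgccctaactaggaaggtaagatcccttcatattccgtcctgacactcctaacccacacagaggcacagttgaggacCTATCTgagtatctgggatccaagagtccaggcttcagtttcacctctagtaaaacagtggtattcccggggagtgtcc
Fcer1a (chr1:173227230-173227479, minus strand): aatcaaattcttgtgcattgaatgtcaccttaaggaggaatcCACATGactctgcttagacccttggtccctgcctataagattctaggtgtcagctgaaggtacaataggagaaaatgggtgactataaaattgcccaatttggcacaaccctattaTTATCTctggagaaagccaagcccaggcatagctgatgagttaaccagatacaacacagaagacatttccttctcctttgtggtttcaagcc
Kit (chr5:75574737-75574986, plus strand): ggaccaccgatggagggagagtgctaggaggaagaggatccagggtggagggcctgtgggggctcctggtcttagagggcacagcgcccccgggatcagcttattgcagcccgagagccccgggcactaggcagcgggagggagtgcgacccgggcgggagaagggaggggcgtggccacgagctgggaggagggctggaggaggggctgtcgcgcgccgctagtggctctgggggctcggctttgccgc
The GATA words were found once each before Cpa3 (46 bases upstream), Mcpt4 (103), Cma1 (79), Fcer1a (92) and Hdc (221), 3 times before Ms4a2, and not in the window of Kit. Of 32851 such mouse windows, 26.5% held a GATA word and 17.6% an E-box word. The single E-box word among these genes stood 208 bases upstream of Fcer1a. No start region was at hand for Tpsb2 or Tpsab1. A match describes these letters only.

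Values were deposited as FPKM, which divides by transcript length and by the library total, so levels can be compared between genes. Depth in reads is unknown. Steps between very low values gave WT replicate 1 a relative depth of 0.487, setting WT replicate 2 to 1, while the remaining libraries had 0.698 to 1.01. Rarres2 was at 0.260, 6.35 and 1.41 FPKM in Rarres2-/- libraries, against 436, 610 and 505 FPKM in WT libraries, as the labels say. Summed FPKM over named genes was 1.88482e+06 in WT replicate 1, against 500311 to 809109 in the other 5 libraries. The source of that difference was not tested. WT replicate 1 also stands apart from the other 5 libraries in the makeup of its RNA. Its summed markers of skeletal muscle were 5.57 times, and those of endothelium 5.04 times, the median of the other 5. The endothelial sum was also high in Rarres2-/- replicate 4, at 110 FPKM against 149 FPKM in WT replicate 1. Of the 5 muscle genes 4, and of the 5 endothelial genes 3, were highest in WT replicate 1. In WT replicate 1 macrophage markers were at 0.395 times, and progenitor and fibroblast markers at 0.455 times, the median of the other 5. Adipocyte markers were at 0.969 times it. Values of the mast cell genes are therefore given with and without this library.

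The 4 granule protease genes carried most of the summed FPKM of the 9 members. Cpa3, Mcpt4, Cma1 and Tpsb2 together summed to 69.3, 86.2 and 97.5 FPKM in Rarres2-/- libraries, and to 6.18, 149 and 125 FPKM in WT libraries. They made up 92.4% to 95.6% of the summed FPKM of all 9 genes in Rarres2-/- libraries, and 97.6% and 97.3% in WT replicates 2 and 3, but 69.6% in WT replicate 1. All 3 Rarres2-/- libraries thus lay between the low WT replicate 1 and the high WT replicates 2 and 3. In bulk tissue, a difference in the number of mast cells and one in RNA per mast cell cannot be told apart.

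**Figure D1:**
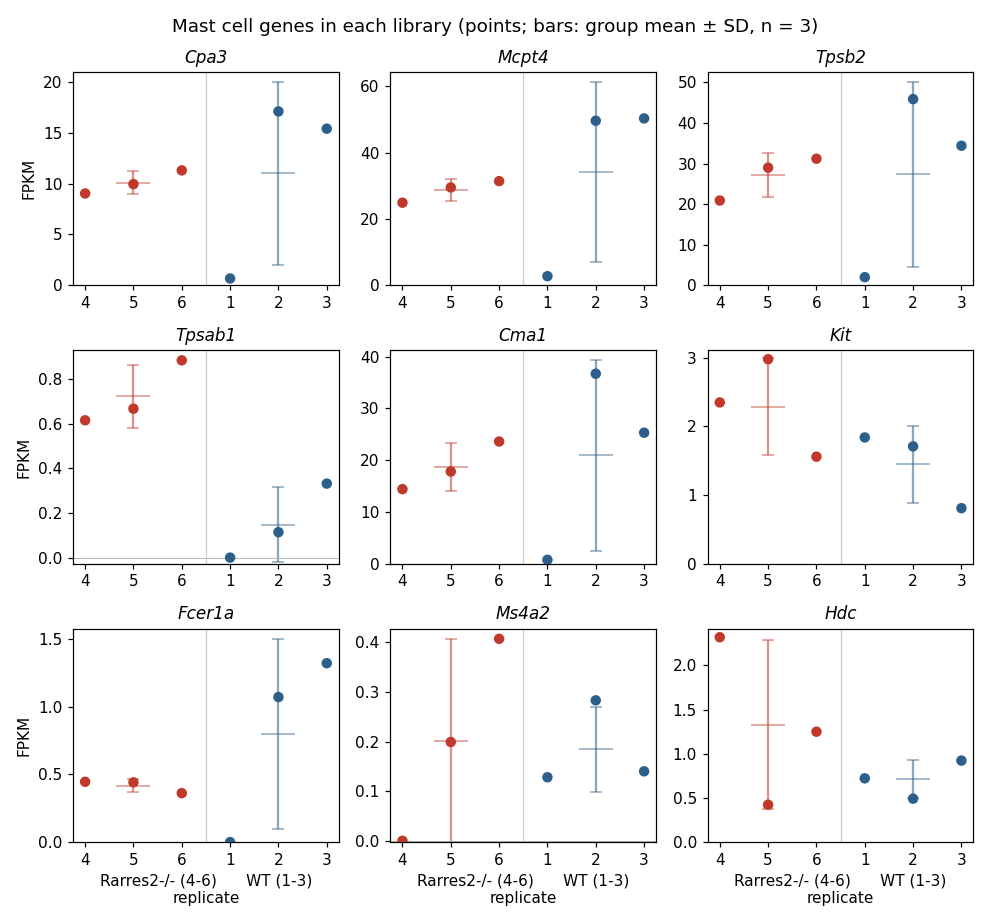
FPKM of each of the 9 mast cell genes (vertical axes, separate scales) in the 3 Rarres2-/- libraries (red, replicates 4 to 6) and the 3 WT libraries (blue, replicates 1 to 3); horizontal bars with whiskers are group means ± SD (n = 3 each). In Cpa3, Mcpt4, Tpsb2 and Cma1 the Rarres2-/- libraries lie above WT replicate 1 and below WT replicates 2 and 3.

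Mcpt4, the chymase, was the most abundant member in every library. It was at 24.9, 29.5 and 31.4 FPKM in Rarres2-/- libraries and at 2.75, 49.6 and 50.3 FPKM in WT libraries. The arithmetic mean was 28.6 ± 3.33 FPKM in Rarres2-/- and 34.2 ± 27.2 FPKM in WT (SD, n = 3 each), while the log2 difference on log2(FPKM + 1) was 0.46 (SE 0.970; limma adjusted p = 0.999). The means and the log2 difference point opposite ways, and the single very low WT library weighs more on the log scale. Without WT replicate 1 the log2 difference of Mcpt4 was -0.79 (SE 0.160; limma adjusted p = 0.230).

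Tpsb2, the tryptase, was next in level. It was at 20.9, 29.0 and 31.2 FPKM in Rarres2-/- libraries and at 2.0, 45.9 and 34.4 FPKM in WT libraries. Its log2 difference was 0.70 (SE 0.981; limma adjusted p = 0.999), and -0.56 (SE 0.231; adjusted p = 0.584) without WT replicate 1. The Rarres2-/- values again fell inside the range of the WT values.

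Cma1 was at 14.4, 17.8 and 23.6 FPKM in Rarres2-/- libraries and at 0.751, 36.7 and 25.3 FPKM in WT libraries. Of the 4 proteases it had the widest span: the lowest other library stood at 19.2 times WT replicate 1, against 9.05 times for Mcpt4, 10.5 times for Tpsb2 and 13.4 times for Cpa3. Its log2 difference was 0.68 (SE 1.09; limma adjusted p = 0.999), and -0.71 (SE 0.258; adjusted p = 0.487) without WT replicate 1.

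Cpa3, the carboxypeptidase, was at 9.03, 9.95 and 11.3 FPKM in Rarres2-/- libraries and at 0.673, 17.1 and 15.4 FPKM in WT libraries. Its log2 difference was 0.48 (SE 0.868; limma adjusted p = 0.999), and -0.64 (SE 0.146; adjusted p = 0.261) without WT replicate 1. No protease gene passed the threshold of an adjusted p of 0.05 in either fit.

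The groups overlapped in all 6 members that could be tested, those with a mean of at least 1 FPKM: the 4 proteases, Kit and Hdc. Over the 11086 genes tested, 4.53% had all Rarres2-/- libraries below all WT libraries and 5.81% had them above. Leaving out WT replicate 1, the 4 protease genes had every Rarres2-/- library below both WT libraries, as had 14.8% of tested genes (10.5% had them above). In that fit limma called 0% of genes in either direction at an adjusted p of 0.05 and 8.77% at an unadjusted p of 0.05, among them 3 of the 6 tested members (Mcpt4, Cpa3 and Cma1). Leaving out Rarres2-/- replicate 4 as well, a library high in endothelial markers, gave log2 differences of -0.70 for Mcpt4 (limma adjusted p = 0.0545), -0.57 for Cpa3 (0.0761), -0.55 for Cma1 (0.197) and -0.39 for Tpsb2 (0.202). This setting was added after the data were seen. It called 0.126% of genes higher and 0.487% lower in Rarres2-/-, and no member among them. With all 6 libraries limma called 0% of genes higher and 0% lower at an adjusted p of 0.05. Even Rarres2 missed that threshold (log2 difference -7.51, limma adjusted p = 0.0597), so a gene that was not called can still differ. At an unadjusted p of 0.05 the fit with all 6 libraries called 3.93% in either direction, none of them a member.

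**Figure D2:**
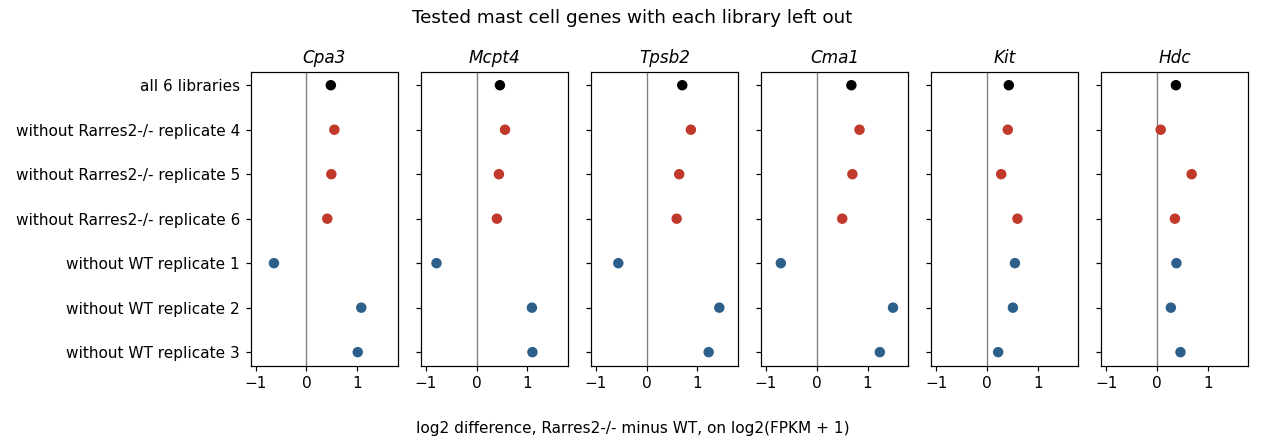
Log2 difference, Rarres2-/- minus WT, on log2(FPKM + 1) (horizontal axis) of the 6 tested mast cell genes, with all 6 libraries (black) and with each library left out (red for Rarres2-/-, blue for WT). The sign of Cpa3, Mcpt4, Tpsb2 and Cma1 changed when WT replicate 1 was left out and in no other of these fits; Kit and Hdc stayed above 0 in all of them.

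The proportions among the protease genes varied far less than their levels. The ratio of Mcpt4 to Cpa3 was 2.76, 2.96 and 2.79 in Rarres2-/- libraries, and 4.09, 2.91 and 3.27 in WT libraries. For Tpsb2 to Cpa3 the ratio was 2.31, 2.92 and 2.77 in Rarres2-/- libraries, and 2.97, 2.69 and 2.23 in WT libraries. Cma1 to Cpa3 was at 1.6, 1.78 and 2.09 in Rarres2-/- libraries, and at 1.12, 2.15 and 1.64 in WT libraries. WT replicate 1 held the highest Mcpt4 and Tpsb2 ratios and the lowest Cma1 ratio, from values of 0.673 to 2.75 FPKM. In each library the order of levels was Mcpt4, Tpsb2, Cma1, Cpa3. Of the 50-base windows of the longest GENCODE transcript, 5.48% of those of Mcpt4 also occur in Cma2 or Mcpt9 and 5.38% of those of Cma1 in Gm48934, while those of Cpa3 and Tpsb2 occur in no other gene. The sources used here do not say how reads shared by gene copies were assigned.

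Tpsab1, the tryptase pseudogene, was the member whose groups did not overlap. It was at 0.616, 0.668 and 0.885 FPKM in Rarres2-/- libraries, was listed at 0 in WT replicate 1, and was at 0.114 and 0.332 FPKM in WT replicates 2 and 3. A two-sided exact permutation test over 3 against 3 libraries gave p = 0.1, its lower limit, and the log2 difference on log2(FPKM + 1) was 0.59. It was 0.50 without WT replicate 1, and 1.96 on log2(FPKM + 0.1), where the value of 0 weighs more. Among the 5851 genes with a lower mean than the filter asks and a value above 0, 2.46% had all Rarres2-/- libraries above all WT libraries. Relative to Tpsb2, Tpsab1 stood at 2.95%, 2.30% and 2.83% in Rarres2-/- libraries, and at 0%, 0.247% and 0.964% in WT libraries. The 0% is that of WT replicate 1, where Tpsb2 itself was at 2 FPKM and so small a share could go unseen. Thus Tpsab1 was higher in Rarres2-/- libraries than in WT replicates 2 and 3, where the other tryptase gene was higher than in any Rarres2-/- library. None of its 50-base windows occurs in Tpsb2. As background, Tpsab1 encodes a working tryptase in other mouse strains.

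The receptor genes were low, and they did not move as a set. Fcer1a, the IgE-binding chain, was at 0.445, 0.441 and 0.361 FPKM in Rarres2-/- libraries, was listed at 0 in WT replicate 1, and was at 1.07 and 1.32 FPKM in WT replicates 2 and 3. This is the placing of the protease genes, with Rarres2-/- libraries in between (exact permutation p = 0.5, two-sided, n = 3 each). On the log2 scale Fcer1a differed by -0.25, and by -0.63 without WT replicate 1. Without WT replicate 1 all 3 Rarres2-/- values lay below both WT values, as in 9.67% of the 5851 genes under the filter. Relative to Cpa3, Fcer1a was at 4.93%, 4.43% and 3.20% in Rarres2-/- libraries, and at 6.30% and 8.57% in WT replicates 2 and 3.

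Ms4a2, the signal-amplifying chain of that receptor, was at 0, 0.199 and 0.407 FPKM in Rarres2-/- libraries and at 0.128, 0.283 and 0.140 FPKM in WT libraries (exact permutation p = 1, two-sided, n = 3 each). It was the lowest member on average, at 0.193 FPKM. The log2 difference of Ms4a2 was 0.01, and -0.02 without WT replicate 1. WT replicate 1, listed at 0 for Fcer1a and Tpsab1, did hold Ms4a2.

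Kit was at 2.35, 2.98 and 1.56 FPKM in Rarres2-/- libraries and at 1.84, 1.71 and 0.809 FPKM in WT libraries. The mean was 2.29 ± 0.711 FPKM in Rarres2-/- and 1.45 ± 0.563 FPKM in WT (SD, n = 3 each). Its log2 difference was 0.43 (SE 0.253; limma adjusted p = 0.999; exact permutation p = 0.3, two-sided, n = 3 each), with overlapping groups. With array weights, which give each library a weight from its fit, the log2 difference was 0.73 and the limma adjusted p 0.0481; in that fit Rarres2-/- replicate 5, the library with the most Kit, had a weight of 6.19 and the others 0.179 to 2.81. That fit called 6.95% of all genes higher and 6.80% lower, and Kit was the only member called. The log2 difference of Kit was 0.55 (SE 0.267; limma adjusted p = 0.696) without WT replicate 1. Unlike the proteases, Kit was not low in WT replicate 1, where it stood at 274% of Cpa3, against 5.25% to 29.9% in the other libraries. Kit is also made by other cells, among them melanocytes and some endothelial cells. Of 5 melanocyte markers 4 had a row, and their summed level was 3.02 to 4.17 FPKM in Rarres2-/- libraries and 1.86 to 4.42 FPKM in WT libraries. The 5 endothelial markers summed to 110, 29.3 and 29.0 FPKM in Rarres2-/- libraries and to 149, 34.3 and 29.6 FPKM in WT libraries. The part of these cells in the Kit values was not tested.

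Hdc was at 2.32, 0.423 and 1.25 FPKM in Rarres2-/- libraries and at 0.722, 0.492 and 0.923 FPKM in WT libraries. Its log2 difference was 0.37 (SE 0.321; limma adjusted p = 0.999), and its highest and its lowest value were both in Rarres2-/- libraries. Like Kit it was not low in WT replicate 1, where it stood at 107% of Cpa3, against 2.89% to 25.7% elsewhere. Hdc is also made by other myeloid cells. Without Rarres2-/- replicate 4, the highest library, the log2 difference was 0.07, and without WT replicate 1 it was 0.38 (SE 0.371; limma adjusted p = 0.967).

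Ordered by mean level, the members ran Mcpt4 (31.4 FPKM), Tpsb2 (27.2), Cma1 (19.7), Cpa3 (10.6), Kit (1.87), Hdc (1.02), Fcer1a (0.607), Tpsab1 (0.436) and Ms4a2 (0.193). Mcpt4 had a mean above that of 86.4% of named genes and Ms4a2 above that of 23.5%. Among the first 4, each gene was above the next in 6 of 6 libraries. Cpa3 exceeded Kit, and Kit exceeded Hdc, in 5 of 6. Hdc exceeded Fcer1a in 3 of 6 and Tpsab1 exceeded Ms4a2 in 4 of 6, so the order of these neighbours changed between libraries. Fcer1a exceeded Tpsab1 in 2 of 6, WT replicates 2 and 3. Both were listed at 0 in WT replicate 1, and Tpsab1 was above Fcer1a in every Rarres2-/- library. Differences between members were not tested. Of the 6 tested members, 6 had a higher mean log2 value in Rarres2-/-, with a median log2 difference of 0.47. Over all 11086 genes tested, 5383 were higher and 5703 lower, with a median of -0.01. Without WT replicate 1 the same 6 members had a median of -0.60, with 2 higher and 4 lower, beside 0.00 over all genes.

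Summed markers of macrophages and of progenitors shared a placing with the proteases: their Rarres2-/- libraries lay between WT replicate 1 and WT replicates 2 and 3. Single tested genes had that placing in 7.07% of cases. The order among Rarres2-/- libraries was not shared. Among WT libraries the progenitor list had the order of the proteases, highest in WT replicate 2 and lowest in WT replicate 1. The macrophage list was slightly higher in WT replicate 3 than in WT replicate 2. The 10 macrophage markers summed to 936, 1031 and 798 FPKM in Rarres2-/- libraries and to 407, 1707 and 1743 FPKM in WT libraries, and 9 of them were lowest in WT replicate 1. The 7 progenitor and fibroblast markers summed to 2004, 1736 and 1732 FPKM in Rarres2-/- libraries and to 912, 4375 and 3157 FPKM in WT libraries, and 7 of 7 were lowest in WT replicate 1. Within that list Pi16, a marker of progenitors in the connective tissue around fat lobules, was at 124, 182 and 132 FPKM in Rarres2-/- libraries, against 12.3, 358 and 352 FPKM in WT libraries. Dpp4, a marker of the same cells, was at 9.47, 15.8 and 9.73 FPKM in Rarres2-/- libraries, against 0.692, 30.1 and 31.5 FPKM in WT libraries. Both were picked from their list after their values were seen. Adipocyte markers summed to 30005 to 63675 FPKM in Rarres2-/- libraries and to 41716 to 50574 FPKM in WT libraries, with 49030 FPKM in WT replicate 1. The part of stroma content in the mast cell values was not tested.

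**Figure D3:**
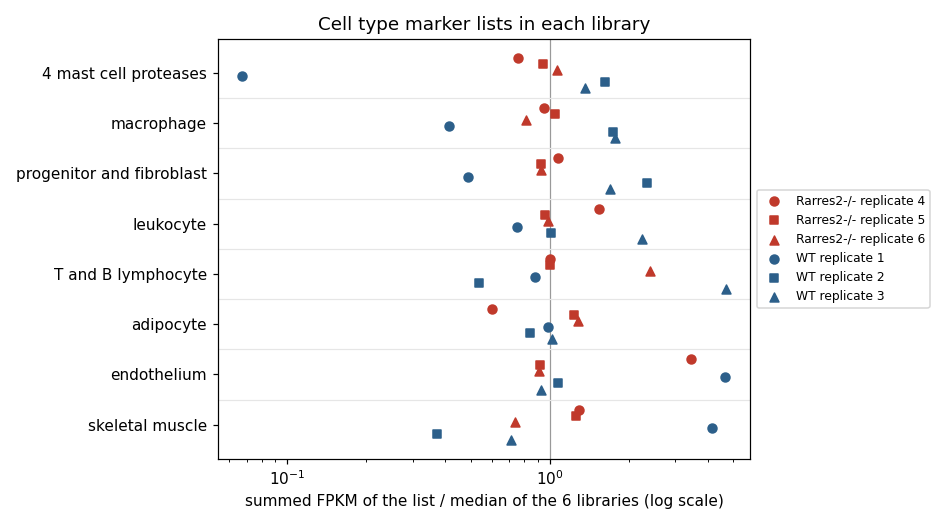
Summed FPKM of each cell type marker list, divided by the median of the 6 libraries (horizontal axis, log scale), in Rarres2-/- libraries (red) and WT libraries (blue). In WT replicate 1 (blue circles) the mast cell proteases, macrophage and progenitor lists are lowest and the endothelial and muscle lists highest.

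Basophils share several genes with mast cells, and their defining protease genes were low. Mcpt8 was at 0, 0 and 0.114 FPKM in Rarres2-/- libraries and at 0 in all WT libraries. Prss34 was at 0.437, 0.849 and 0.154 FPKM in Rarres2-/- libraries and at 0, 1.67 and 0.425 FPKM in WT libraries, so it reached the level of Kit in WT replicate 2. The part of basophils in the mast cell values was not tested. The whole list of 4 genes summed to 9.83 to 14.5 FPKM in Rarres2-/- libraries and to 11.4 to 15.3 FPKM in WT libraries, nearly all of it Il3ra, which other cells make. Eosinophil markers (4 genes) summed to 0.251 to 0.805 FPKM in Rarres2-/- libraries and to 0.046 to 0.890 FPKM in WT libraries. Epithelial and skin markers (5 genes) summed to 0.0909 to 1.40 FPKM in Rarres2-/- libraries and to 0.0616 to 0.286 FPKM in WT libraries. The T and B lymphocyte list summed to 7.54 to 18.2 FPKM in Rarres2-/- libraries and to 4.05 to 35.5 FPKM in WT libraries. The leukocyte gene Ptprc was at 5.02 to 8.06 FPKM in Rarres2-/- libraries and at 3.95 to 11.8 FPKM in WT libraries.

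Other genes of mast cell biology were grouped in 5 lists. Of 13 further granule and surface genes 10 had a row and 2 were tested, and 0 passed in either direction (limma adjusted p under 0.05; 0% of all genes passed). Srgn, the proteoglycan core that packs granule proteases and is made by many blood cells, was at 44.1 ± 9.89 FPKM in Rarres2-/- and 59.4 ± 7.59 FPKM in WT (SD, n = 3 each), with WT replicate 1 the highest library at 67.4 FPKM. Ndst2, which sulfates heparin, was at 4.78 ± 1.27 FPKM in Rarres2-/- and 5.08 ± 0.469 FPKM in WT. Mrgprb2, the receptor through which basic peptides activate connective tissue mast cells, was under the filter at 0.456, 0.303 and 0.293 FPKM in Rarres2-/- libraries, and at 0, 0.350 and 0.417 FPKM in WT libraries. Mrgprb1, its relative, was at 0.876, 0.785 and 0.790 FPKM in Rarres2-/- libraries and at 0, 0.682 and 0.758 FPKM in WT libraries (two-sided exact permutation p = 0.1, the lower limit of the test), and was picked after its values were seen. Both receptor genes were thus listed at 0 in WT replicate 1, like Fcer1a. In Rarres2-/- libraries Mrgprb2 overlapped WT replicates 2 and 3 and Mrgprb1 lay above them, unlike the proteases. Of the 5851 genes under the filter with a value above 0, 2.46% had all Rarres2-/- libraries above all WT libraries, as Mrgprb1 had.

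Growth factors and transcription factors of mast cells gave 12 tested genes of 14, and 0 passed in either direction. Kitl, which encodes stem cell factor, the ligand of Kit, was at 12.7, 9.63 and 6.63 FPKM in Rarres2-/- libraries and at 16.1, 7.85 and 8.13 FPKM in WT libraries. Ligand RNA was thus highest in WT replicate 1, where the protease genes were lowest. Gata2, a transcription factor of mast cells that endothelium also makes, was at 3.40, 1.26 and 1.06 FPKM in Rarres2-/- libraries and at 8.2, 1.49 and 1.22 FPKM in WT libraries, highest in the libraries with the most endothelial marker RNA. Mitf, a factor required for mast cell maturation, was at 3.60 ± 0.923 FPKM in Rarres2-/- and 3.9 ± 1.61 FPKM in WT (SD, n = 3 each). Leaving out WT replicate 1 turned the log2 difference of Kitl (-0.11 with all 6 libraries, 0.20 without it) and of Gata2 (-0.44 and 0.22), and moved that of Mitf to -0.33, against -0.06 with all 6. In those 5 libraries 1 of the 12 genes had every Rarres2-/- library below both WT libraries and 0 had them above. Of all tested genes, 14.8% lay below and 10.5% above in this way.

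Lyl1, a blood and endothelial transcription factor, had the smallest p of that list. It was at 7.85, 7.25 and 5.88 FPKM in Rarres2-/- libraries and at 10.6, 11.4 and 12.5 FPKM in WT libraries, with groups apart. Of the 12 genes tested in that list 1, Lyl1, had all Rarres2-/- libraries below all WT libraries, beside 4.53% of all tested genes. The log2 difference of Lyl1 was -0.65 (SE 0.149, limma adjusted p = 0.939). Il33, an alarmin that activates mast cells, was at 5.77, 9.74 and 7.60 FPKM in Rarres2-/- libraries and at 0.631, 6.40 and 7.34 FPKM in WT libraries. The log2 difference of Il33 was 0.88 (limma adjusted p = 0.999), and 0.12 (adjusted p = 1) without WT replicate 1. Its receptor gene Il1rl1 was at 1.46 ± 0.113 FPKM in Rarres2-/- and 1.06 ± 0.511 FPKM in WT, with its lowest value, 0.508 FPKM, in WT replicate 1; its log2 difference was 0.29, and 0.08 without that library. Il3ra, a receptor chain for interleukin-3, was at 11.2 ± 2.39 FPKM in Rarres2-/- and 13 ± 1.74 FPKM in WT (SD, n = 3 each).

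Signalling genes of the IgE receptor gave 13 tested genes of 14, with 0 past the threshold in either direction, 9 lower and 4 higher in mean, and 9 of 13 lowest in WT replicate 1. Across all 11086 tested genes, 28.8% were lowest in that library, and 5703 were lower and 5383 higher in mean in Rarres2-/-. Fcer1g, the shared gamma chain that macrophages also make, was at 64.6, 63.1 and 63.0 FPKM in Rarres2-/- libraries and at 40.0, 104 and 103 FPKM in WT libraries, again with Rarres2-/- in between. In WT replicate 1 it was less low than the proteases: it stood at 0.620 times the median of the other 5 libraries, where Cpa3 stood at 0.0597 times and Mcpt4 at 0.0877 times. The adaptor gene Lcp2 had a log2 difference of -0.31, Vav1 of -0.23 and the adaptor gene Gab2 of 0.16 (limma adjusted p = 0.999 each). Leaving out WT replicate 1 gave -0.69 for Fcer1g (limma adjusted p = 0.245; -0.24 with all 6 libraries), -0.57 for Lcp2 (0.591), -0.48 for Vav1 (0.418) and -0.01 for Gab2 (1). In those 5 libraries 5 of the 13 genes had every Rarres2-/- library below both WT libraries and 0 had them above, beside 14.8% and 10.5% of all tested genes.

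Genes of the lipid mediators that mast cells and macrophages release gave 8 tested genes of 12, and 0 passed in either direction. Alox5, which starts leukotriene synthesis, was at 3.43, 3.47 and 2.11 FPKM in Rarres2-/- libraries and at 1.31, 6.31 and 6.22 FPKM in WT libraries. Hpgds, the prostaglandin D synthase of mast cells, was at 1.64 ± 0.536 FPKM in Rarres2-/- and 1.98 ± 0.637 FPKM in WT. Ptgs1 had a log2 difference of -0.19 and the prostaglandin E synthase gene Ptges one of 0.34 (limma adjusted p = 0.999 each). Leaving out WT replicate 1, Ptgs1 had -0.30 (limma adjusted p = 0.905), Ptges 0.38 (0.847), Hpgds -0.31 (0.905) and Alox5 -0.88 (0.253), against -0.33 for Alox5 with all 6 libraries. In those 5 libraries 4 of the 8 genes had every Rarres2-/- library below both WT libraries and 0 had them above. Over all tested genes these shares were 14.8% and 10.5%. Of the histamine list, 1 of 6 genes was tested and did not pass: Hnmt, which inactivates histamine, was at 32.6 ± 12.3 FPKM in Rarres2-/- and 27.6 ± 5.92 FPKM in WT (SD, n = 3 each). Hnmt had a log2 difference of 0.18, and of 0.00 without WT replicate 1. The other histamine genes with a row, Hrh1, Hrh2, Hrh4 and Aoc1 (listed under an older symbol), were under the filter.

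Genes outside the list with a similar profile were ranked by the root mean square difference of centred log2(FPKM + 1) from the mean profile of the 6 tested members, over 6 libraries. The 8 nearest were Lyz1 (0.225), Stmn4 (0.229), Ccbp2 (0.240), Thbs3 (0.240), Gpr133 (0.249), Efemp1 (0.250), Lbp (0.252) and Retnla (0.262), beside a median of 0.875 over tested genes. Lyz1, a lysozyme gene, was at 70.8, 71.2 and 67.9 FPKM in Rarres2-/- libraries and at 22.7, 94.9 and 98.7 FPKM in WT libraries. The 4 proteases gave 4 of the 6 parts of that profile, so their own distances are partly set by the measure: Cpa3 stood at 0.310, Mcpt4 at 0.450, Tpsb2 at 0.473 and Cma1 at 0.606. Kit and Hdc flatten the profile, so a gene that falls less than the proteases in WT replicate 1, such as Lyz1, can stand nearer to it. By this measure 28 genes outside the list were nearer to the profile than Cpa3 and 141 nearer than Mcpt4. For Tpsb2 there were 181 such genes and for Cma1 589. Hdc stood at 0.917 and Kit at 0.970, both past the median gene. The profile is thus mainly that of the proteases in a flattened form. Nearness to it does not show that a gene fell as far as they did.

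**Figure D4:**
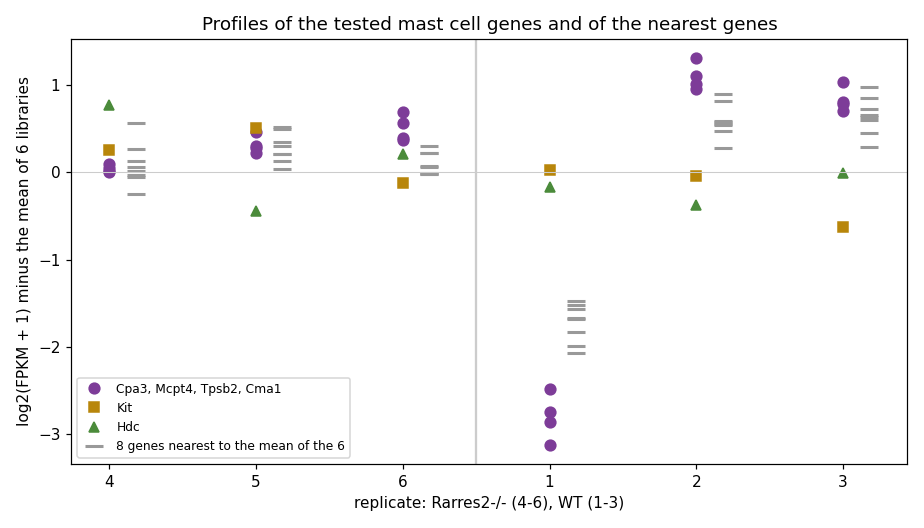
Log2(FPKM + 1) minus the mean of the 6 libraries (vertical axis) by library (horizontal axis, Rarres2-/- left, WT right) for the 4 protease genes (purple circles), Kit (squares), Hdc (triangles) and the 8 nearest genes (grey bars). The 4 proteases sit far below 0 in WT replicate 1 alone and above 0 in WT replicates 2 and 3, while Kit and Hdc do not.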

How the data were processed

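Per the file headers, the authors deposited FPKM, 1 table per library. In the table of WT replicate 3 the header gives the sample's name and no unit, and the values were read as FPKM from their scale. Bowtie and the build mm10 are named in the submitters' processing notes; the sources used here give no FPKM program, annotation, strand handling or version. The 737 rows without a symbol (0.793% to 4.91% of the summed values) were left out. FPKM divides by the library total, so a few abundant genes can shift all others.

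The test was limma 3.58.1 (R 4.3.3) with a variance trend and genotype as its only term, Rarres2-/- minus WT, on log2(FPKM + 1), where differences of genes near or under 1 FPKM come out smaller than on FPKM itself. It covered the 11086 named genes whose mean reached 1 FPKM, with two-sided p-values adjusted over all of them by Benjamini-Hochberg and a threshold of 0.05. Tpsab1, Fcer1a and Ms4a2 were under the filter and were compared by exact permutation tests over libraries (scipy 1.17.1). The limma code was tested on simulated data. Relative depth came from ratios of values below 0.15 FPKM. The members and lists were chosen with earlier results of these data known. Named genes are all members, up to 4 genes with the smallest p from each of 5 related lists with 8 fixed genes, Rarres2 and the 8 genes of nearest profile; others were picked after their values were seen. Coordinates and start regions are RefSeq GRCm38.p6, and transcript windows GENCODE M21. Alternatives were a pseudocount of 0.1, no filter, 5 FPKM in 3 libraries, quantile or upper-quartile normalization, totals that leave out the 20 most abundant genes, array weights, no trend, and each library left out.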

Additional observations from a re-analysis of the deposited data

How the results depend on the processing

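Each genotype has 3 libraries and FPKM holds no counts, so low members (Tpsab1, Fcer1a, Ms4a2) rest on values whose counting error is unknown. No paired analysis was possible because the genotypes share no replicate numbers. Of 115 values of members under alternatives, 97 kept their direction and side of the threshold and 17 turned; the remaining value is the call of Kit with array weights. Without WT replicate 1 the log2 differences of Cpa3, Mcpt4, Tpsb2 and Cma1 were -0.64, -0.79, -0.56 and -0.71. Over all fits with 1 library left out they ran from -0.64 to 1.08 for Cpa3, -0.79 to 1.10 for Mcpt4, -0.56 to 1.43 for Tpsb2 and -0.71 to 1.5 for Cma1, and the median of the tested members from -0.60 to 1.08. Ms4a2 ran from -0.11 to 0.14, turning without WT replicate 1 (-0.02), WT replicate 3 (-0.01) or Rarres2-/- replicate 6 (-0.11), and was -0.16 with a pseudocount of 0.1, where Tpsab1 was 1.96. Kit (0.22 to 0.60), Hdc (0.07 to 0.68), Tpsab1 (0.50 to 0.70 in those fits) and Fcer1a (-0.63 to -0.03) kept their sign.

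With array weights, which gave WT replicate 1 a weight of 0.192 and Rarres2-/- replicate 4 one of 0.179, the values were -0.52 for Cpa3, -0.60 for Mcpt4, -0.33 for Tpsb2, -0.59 for Cma1 and -0.13 for Hdc, with a median of -0.42. Without WT replicate 1 and Rarres2-/- replicate 4 they were -0.57, -0.70, -0.39 and -0.55 for those 4 proteases, with a median of -0.47. By limma the count of genes past the threshold was 0 with all libraries and 0 to 1 with 1 left out (Rarres2 without Rarres2-/- replicate 5, Snord4a without Rarres2-/- replicate 6). It was 1 (Rarres2) with 5 FPKM in 3 libraries, with upper-quartile scaling and with scaling without the 20 most abundant genes, 1524 with array weights (770 higher and 754 lower) and 68 without the 2 libraries just named (14 higher and 54 lower).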

Other observations

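Few genes were as low in WT replicate 1 as the mast cell proteases. Of 11086 tested genes, 18 (0.162%) were in that library at less than the lowest of the other 5 libraries by over 10 times, and 3 of the 18 were Cma1, Cpa3 and Tpsb2. Mcpt4 missed that bound at 9.05 times. Named after their values were seen, the others included the progenitor genes Pi16 and Dpp4, the scavenger receptor gene Scara3, and the growth factor genes Bmp7 and Wnt10b. They also included the tight junction genes Cldn3 and Cldn10, and the epidermal genes Dmkn and Krtdap. Rps27, a ribosomal protein gene, was among them too, at 8.3 FPKM in WT replicate 1 and 132 to 1007 FPKM elsewhere. Scara3 was at 13, 14.7 and 11.2 FPKM in Rarres2-/- libraries, against 1.07, 29.2 and 29.1 FPKM in WT libraries. Bmp7 was at 1.94, 2.11 and 2.17 FPKM in Rarres2-/- libraries, against 0.0648, 5.48 and 4.59 FPKM in WT libraries. Krtdap was at 4.06, 2.85 and 6.25 FPKM in Rarres2-/- libraries and at 0, 7.99 and 8.47 FPKM in WT libraries. Scara3, Bmp7 and Krtdap had all Rarres2-/- values between WT replicate 1 and WT replicates 2 and 3. That placing was shared by the 3 members and 10 of the 15 genes outside the list, Scara3, Bmp7 and Krtdap among them. Of all tested genes 7.07% had it. Being lowest in WT replicate 1 is part of the placing, and all 18 genes were picked for it. In the remaining 5 of the 15 a Rarres2-/- value reached past a value of WT replicates 2 and 3. Dmkn, 1 of these 5, was at 4.6, 8.06 and 8.09 FPKM in Rarres2-/- libraries and at 0.428, 6.21 and 13.1 FPKM in WT libraries. The part of tissue makeup in these values was not tested.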
